A study of Zea mays with 6 samples.

Results

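The leaf wax genes examined here are 9 maize gene models, chosen by their identifiers from the 39628 in the deposited tables. They comprise 5 genes named after glossy mutants that act in wax synthesis or juvenile leaf identity (gl1, gl2, gl4a, gl8b and gl15), a gene model listed as gl3, a pair of genes with the symbol CER1, and the lipid transfer protein gene plt1. They were measured by RNA sequencing in leaves of field-grown Zea mays at the stage of 6 leaves. The 2 groups held 3 libraries each, from wild type plants of the inbred Q319 and from the transgenic line L100. The labels give neither the transgene nor its promoter, and do not say whether libraries of the same line stem from different plants. The p-values therefore measure only the spread between these libraries, which may be technical, and the transgene itself could not be checked. In whole-leaf RNA, fewer epidermal cells and less RNA per cell cannot be told apart.

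Cuticular wax is made in epidermal cells from very-long-chain fatty acids. A fatty acid elongase complex in the endoplasmic reticulum extends the chains, and branch enzymes then turn them into aldehydes, alkanes, alcohols and esters that are exported to the leaf surface. Juvenile maize leaves carry a dull bloom of wax crystals. Mutants of the glossy genes lack much of it and shed water poorly, and the transcription factor gene gl15 maintains the juvenile type of epidermis until it is repressed by the microRNA miR172.

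Total counts ranged from 6458248 to 9922468 per library. The chi-square per gene between replicate libraries, about 1 where only sampling noise separates them, was 13.89 to 19.22 within L100 and 53.49 to 122.9 within wild type, and it was highest for the pairs with wild type replicate 3. Photosynthesis genes that mark the leaf blade were abundant in all 6 libraries, summing to 67200 to 125000 library-scaled counts (CPM). Of 9 homeobox genes that mark the meristem and leaf base, 4 had no count in any library, and kn1, the defining gene of the meristem, reached at most 0.162 CPM. Their sum of 53.3 to 90.2 CPM came almost wholly from knox6 and knox7.

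Of the 9 wax genes, 7 passed the filter on low counts and were tested, and gl15 and gl3 did not pass it. The 9 were chosen with earlier results of these data known, which limits the comparisons with all genes given here. Most of the 7 tested wax genes had higher means in L100, but none passed the test. The log2 fold change was above 0 for 6 of the 7, against 47.6% of all 18702 tested genes, and the median was 0.65 for the 7 and -0.0278 for all tested genes. By edgeR's quasi-likelihood test with Benjamini-Hochberg adjustment over all tested genes, 0 of 7 were called at an adjusted p of 0.05, where 0.834% of all tested genes were called. At an unadjusted p under 0.05 stood 2 of the 7 (a CER1 gene, GRMZM2G099097, and plt1), against 10% of all tested genes. DESeq2 called 1 of the 7, the same CER1 gene, against 3.06% of all genes, and limma-voom called 0. The 3 libraries of L100 all lay above the 3 of wild type in 2 of the 7 (this CER1 gene and gl2), where groups did not overlap in 16.2% of all tested genes in either direction and L100 was the higher in 7.69%. Without wild type replicate 3, 6 of the 7 remained above 0, with a median of 0.41.

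**Figure D1:**
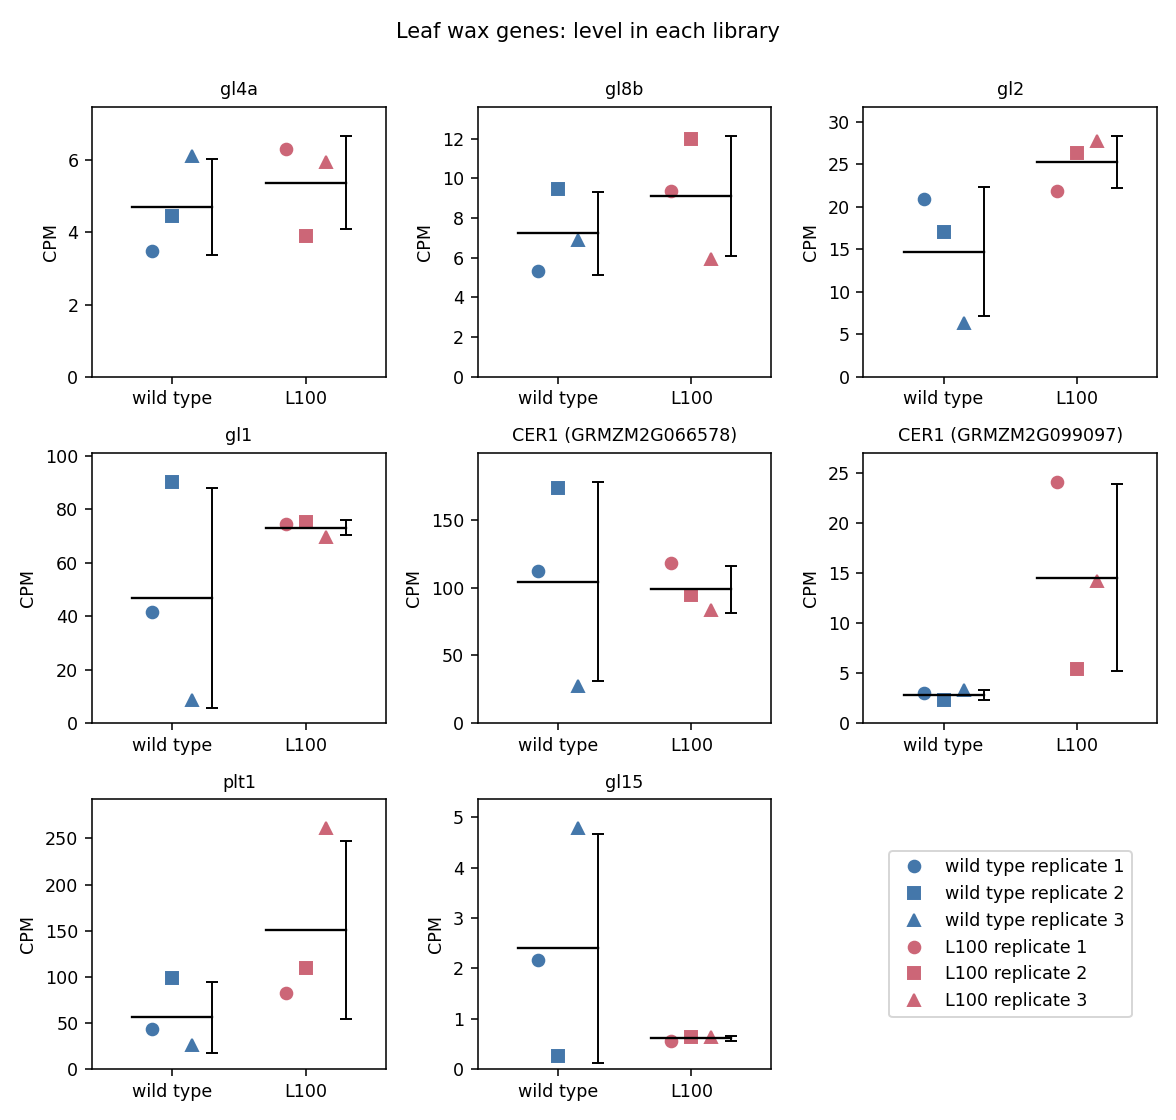
Level of 8 leaf wax genes in each library, as CPM on TMM-scaled library sizes; points are libraries, horizontal lines are group means and vertical bars are 1 SD (n = 3 libraries). The L100 points of gl1 sit between 69.7 and 75.0 CPM while the wild type points run from 8.46 to 90.1 CPM; gl3, with 1 count in all, is not drawn.

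**Figure D2:**
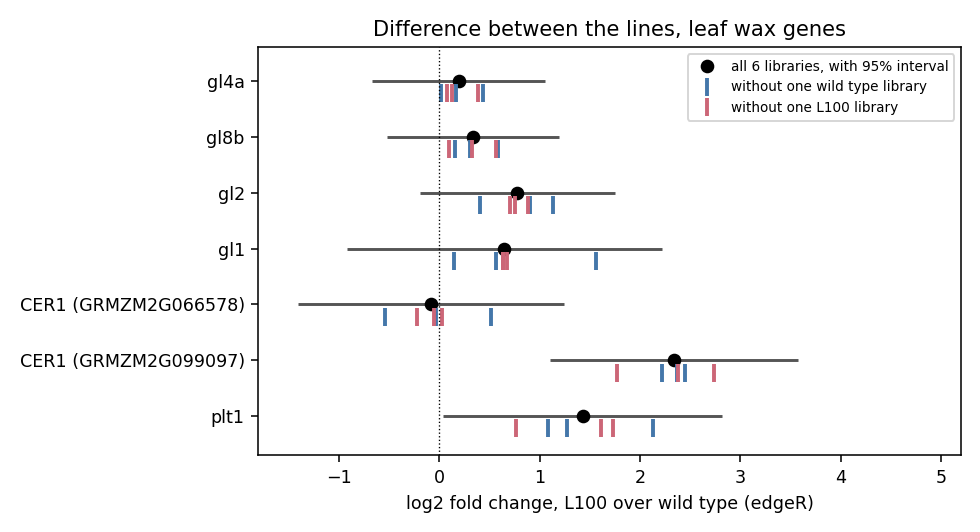
Log2 fold change of L100 over wild type for the 7 tested genes (edgeR), with the 95% interval as a line and the value without each library as a tick. The intervals of CER1 (GRMZM2G099097) and plt1 lie above 0 before adjustment, and the remaining 5 cross 0.

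Among the elongation genes, gl4a (GRMZM2G003501) encodes a condensing enzyme that joins a new carbon unit to the growing chain. Its level was 3.49, 4.47 and 6.12 CPM in replicates 1 to 3 of wild type, in which order values per library are given throughout, and 6.30, 3.90 and 5.95 CPM in those of L100. The groups overlapped. The log2 fold change was 0.20 ± 0.37 (SE, n = 3 per group, edgeR adjusted p = 0.904), with a 95% interval from -0.66 to 1.05. With 1 library left out it ranged from 0.0197, when wild type replicate 1 was missing, to 0.437, when the third wild type library was.

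The next step of the elongation cycle is the reduction of the ketoacyl product, carried out by the enzyme that gl8b (GRMZM2G087323) encodes. The gene had 5.34, 9.46 and 6.87 CPM across the wild type libraries and 9.37, 12.0 and 5.95 CPM across those of L100. Neither line was uniformly higher, and the log2 fold change of 0.34 ± 0.37 did not pass (edgeR adjusted p = 0.807; 95% interval -0.52 to 1.19). Leaving out replicate 2 of L100 lowered it to 0.0948, and leaving out that of wild type raised it to 0.584. The name table sets this model apart from gl8, a similar gene whose record carried no matching identifier, so reads of the pair may be split between them. As fold of wild type, the 95% intervals run from 0.631 to 2.08 for gl4a and from 0.698 to 2.29 for gl8b. Differences within these limits remain compatible with the data.

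gl2 (GRMZM2G098239) belongs to the family of Arabidopsis CER2, whose proteins assist the condensing enzymes in making the longest chains. It had 20.9, 17.0 and 6.28 CPM across the wild type libraries and 21.8, 26.3 and 27.7 CPM across those of L100. The groups did not overlap, but the lowest L100 library stood close to the highest wild type library. The group means were 14.7 ± 7.59 and 25.3 ± 3.06 CPM (SD, n = 3 per group). The log2 fold change was 0.78 ± 0.42 and did not pass (edgeR adjusted p = 0.615). It was 0.41 without wild type replicate 3, the library in which the gene was lowest, and 1.13 without wild type replicate 1.

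In the branch that leads to aldehydes and alkanes, gl1 (GRMZM2G114642) is related to Arabidopsis CER3, a partner of the alkane-forming enzyme CER1. It had 41.4, 90.1 and 8.46 CPM across the wild type libraries, a 10.6-fold range, and 74.4, 75.0 and 69.7 CPM across those of L100, a 1.08-fold range. All L100 libraries lay inside the wild type range. The log2 fold change was 0.65 ± 0.68 (edgeR adjusted p = 0.797; 95% interval -0.92 to 2.22), and it was as low as 0.15 with wild type replicate 3 left out and as high as 1.56 with replicate 2 left out.

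The more abundant CER1 gene (GRMZM2G066578), named after the Arabidopsis enzyme that forms alkanes, had 112, 174 and 27.5 CPM across the wild type libraries and 118, 94.7 and 83.3 CPM across those of L100. The L100 libraries again lay within the wild type range. The group means were close, at 104 ± 73.5 and 98.6 ± 17.6 CPM, and the log2 fold change was -0.08 ± 0.57 (edgeR adjusted p = 0.978). The 95% interval, -1.41 to 1.24, leaves room for more than a 2-fold difference in both directions. The sign turned without wild type replicate 2 (0.51) and was negative without wild type replicate 3 (-0.54).

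The other gene with the symbol CER1 (GRMZM2G099097) was low in wild type and uneven in L100. Its counts were 29, 18 and 39 in wild type, or 2.98, 2.30 and 3.27 CPM, and 172, 33 and 88 in L100, or 24.1, 5.36 and 14.2 CPM. Every L100 library was above every wild type library, and the L100 libraries spread over a 4.49-fold range against 1.42-fold in wild type. The means were 2.85 ± 0.497 and 14.5 ± 9.36 CPM, a 5.07-fold difference with a 95% interval of 2.14 to 12.0. The log2 fold change of 2.34 ± 0.54 had an unadjusted p of 0.00251 and an adjusted p of 0.128 in edgeR; DESeq2 gave an adjusted p of 0.00294 and limma-voom 0.275. With DESeq2 the call was lost without L100 replicate 1 (log2 fold change 1.79, adjusted p = 0.131) or L100 replicate 3 (2.39, adjusted p = 0.0581), while it held without each of the other 4 libraries (0.0191 or less).

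plt1 (GRMZM2G101958) encodes a small secreted lipid transfer protein that binds phospholipids and fatty acids. It had 43.4, 99.3 and 25.9 CPM across the wild type libraries and 82.4, 110 and 261 CPM across those of L100. The wild type library with the most plt1 lay between L100 libraries, and L100 replicate 3 was the highest of all 6. The means were 56.2 ± 38.3 and 151 ± 96.0 CPM. The log2 fold change of 1.43 ± 0.60 had an unadjusted p of 0.0455 and an adjusted p of 0.484 in edgeR. With L100 replicate 3 left out it was 0.77, and with wild type replicate 2 left out 2.13. In the latter case DESeq2 called it (adjusted p = 0.00374), while edgeR did not (0.114).

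Among the regulators, gl15 (GRMZM2G160730), the APETALA2-like gene of juvenile leaf identity, was read at few counts in most libraries. It had 21, 2 and 57 counts in wild type, or 2.16, 0.256 and 4.78 CPM, and 4 counts in each L100 library, or 0.560, 0.649 and 0.643 CPM. The exact 95% Poisson intervals, scaled to CPM and covering counting error only, were 1.33 to 3.3, 0.0309 to 0.923 and 3.62 to 6.19 CPM for the wild type libraries. Those of L100 were 0.152 to 1.43, 0.177 to 1.66 and 0.175 to 1.65 CPM. The interval of wild type replicate 3 thus lay above those of all L100 libraries, while those of wild type replicates 1 and 2 overlapped with them. Too few libraries had enough counts for the main test. With a looser filter the log2 fold change was -1.95 ± 0.89 (edgeR adjusted p = 0.528). With 1 library left out, gl15 passed the usual filter in 4 cases. Without wild type replicate 2 the log2 fold change was -2.46 ± 0.58 (edgeR adjusted p = 0.0895, DESeq2 adjusted p = 0.0398). Without L100 replicate 1, 2 or 3 it was -1.88, -1.98 or -1.99 and did not pass (edgeR adjusted p 0.734, 0.916 and 0.886; DESeq2 0.772, 0.925 and 0.902). The mean difference in log2 CPM, -1.13, was -0.33 without wild type replicate 3.

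The gene model listed as gl3 (GRMZM2G162434) had no record in the name table, so its name could not be checked and no role is given. It had 0 counts in 5 libraries and 1 count in L100 replicate 3. By the limit of 3 counts, a count of 0 allows up to 0.251 to 0.383 CPM in the wild type libraries and 0.420 to 0.487 CPM in the L100 libraries with none. No difference was detectable at this depth.

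Levels of different genes were set side by side per kilobase of coding length. By CPM per kb, plt1 had the highest level of the 9 in all 6 libraries (70.7 to 712 CPM per kb) and CER1 (GRMZM2G066578) the next (14.5 to 91.6 CPM per kb). In 5 libraries gl1 (4.09 to 43.5 CPM per kb) was the third and gl2 (4.80 to 21.2 CPM per kb) the fourth. In wild type replicate 3 the order was different, with gl8b at 7.0, gl2 at 4.80, gl4a at 4.19 and gl1 at 4.09 CPM per kb. By CPM per kb, every library had more gl8b (5.44 to 12.2) than any library had gl4a (2.39 to 4.32) or gl15 (0.214 to 4.0). The ranges of gl4a and gl15 overlapped. CER1 (GRMZM2G099097; 1.06 to 11.1 CPM per kb) spanned these genes, above gl8b in L100 replicates 1 and 3 and below it in the other 4 libraries. gl3 was last in each library. The authors' deposited FPKM values gave the same leading pair in every library. They put plt1, whose coding length is only 366 bases, closer to CER1 (47.7 and 45.6 FPKM in wild type replicate 1, against 119 and 58.8 CPM per kb). Lower in the order, FPKM changed some ranks. The ranges of gl8b (2.63 to 6.02 FPKM) and gl4a (1.9 to 3.47 FPKM) overlapped. In L100 replicate 3, gl4a (3.27 FPKM) stood above gl8b (2.96 FPKM). In wild type replicate 3, gl2 (3.9 FPKM) and gl1 (3.88 FPKM) stood above gl8b (3.42 FPKM).

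plt1 made up 52.9% to 63.8% of the summed CPM per kb of the 9 genes in wild type and 61.6%, 70.7% and 86.0% in L100 replicates 1 to 3. The more abundant CER1 gene made up 26.2%, 21.1% and 13.1% in wild type and 17.0%, 11.8% and 5.30% in L100. The shares of both overlapped between the lines. Without plt1, the summed level was 106, 162 and 40.1 CPM per kb in wild type and 140, 124 and 116 CPM per kb in L100, so that all L100 libraries lay within the wild type range.

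**Figure D3:**
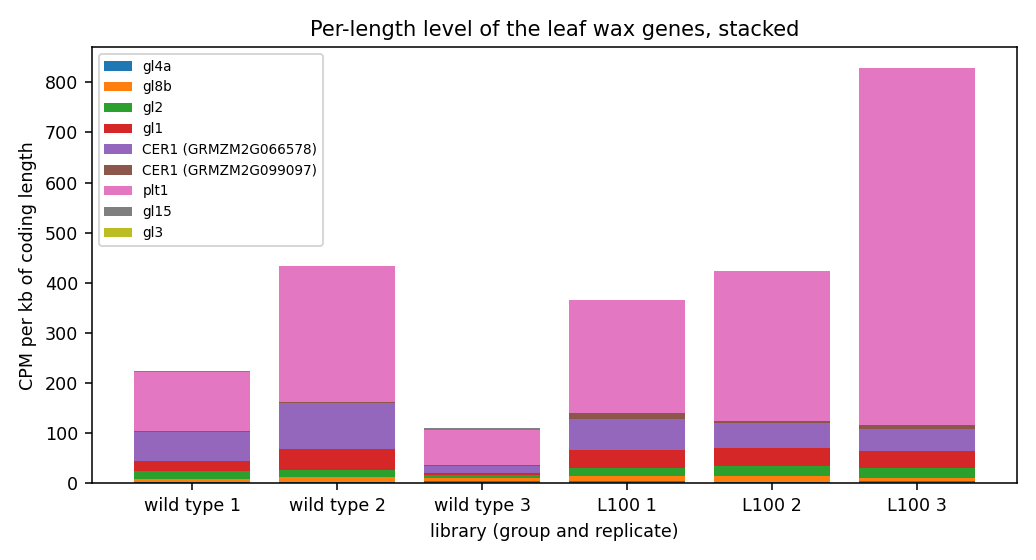
Per-length level of the 9 leaf wax genes in each library, stacked, in CPM per kb of coding length. plt1 is the largest segment in every library; the sum runs from 111 CPM per kb in wild type replicate 3 to 828 CPM per kb in L100 replicate 3.

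Apart from the prior count of 1 in log2 CPM, from which they were taken, ratios between genes within a library do not depend on the scaling between libraries. Over the 21 pairs of tested genes, the ratios of the groups did not overlap in 2, or 9.52%, which is below the 18.2% found over all pairs of tested genes. The first of them was CER1 (GRMZM2G066578) over gl1. This ratio was 2.69, 1.93 and 3.22 in wild type and 1.58, 1.26 and 1.2 in L100. It was thus lower in every L100 library, although neither gene alone separated the lines. The other was CER1 (GRMZM2G099097) over gl4a, at 0.858, 0.527 and 0.543 in wild type and 3.77, 1.36 and 2.35 in L100. Each had a two-sided exact permutation p of 0.1, the smallest that 3 against 3 libraries allow, and 0.787 after adjustment over the 21 pairs.

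Much of the variation of these genes lay among the wild type libraries. In wild type replicate 3, gl1 differed from the mean of the other wild type libraries by -2.83 on the log2 scale, CER1 (GRMZM2G066578) at -2.34, gl2 at -1.57 and plt1 at -1.34. gl8b (-0.05), gl4a (0.62) and CER1 (GRMZM2G099097; 0.31) did not share this drop. The median of the 7 was -1.34, against 0.01 for all tested genes, and only 1.98% of all tested genes had a value as low as that of gl1. gl15 went the other way, with a difference of 2.40. Its order over the wild type libraries (highest in replicate 3, lowest in replicate 2) was the reverse of that of gl1, CER1 (GRMZM2G066578) and plt1, each highest in replicate 2 and lowest in replicate 3. Within L100 gl15 had the same count in each library, while plt1 varied 3.16-fold. The ratio of the highest to the lowest library was larger in wild type than in L100 for 5 of the 7 tested genes, a share near the 69.6% of all tested genes.

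**Figure D4:**
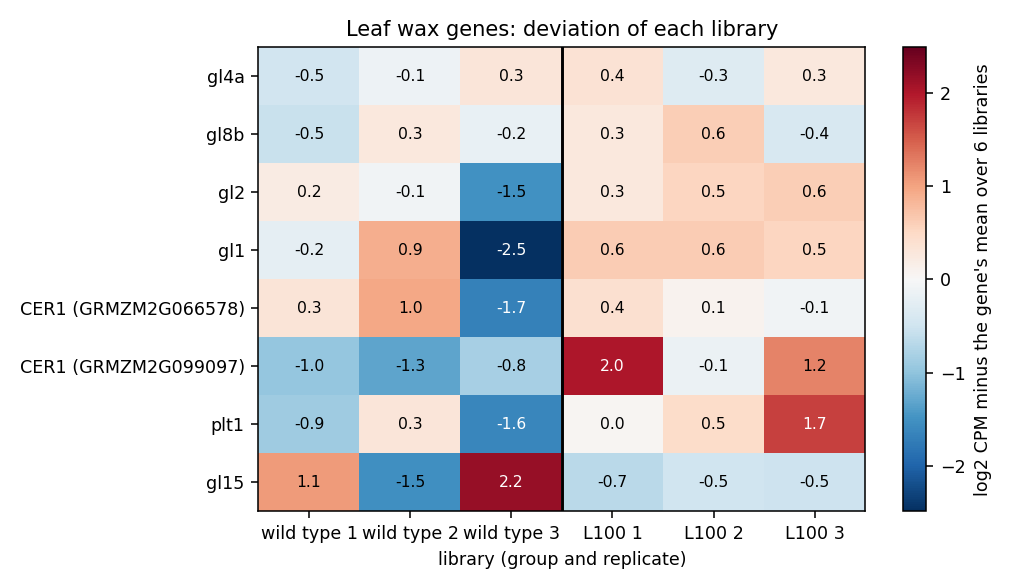
Log2 CPM of 8 leaf wax genes in each library, minus the gene's mean over the 6 libraries; rows are genes and columns are libraries. In wild type replicate 3, gl1, CER1 (GRMZM2G066578), gl2 and plt1 are at their lowest and gl15 is at its highest.

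Some other genes also set wild type replicate 3 apart. Its summed level of markers of senescing leaves, of which 3 of 5 were detected and tested, was 970 CPM, against 390 and 498 CPM in the other wild type libraries and 200 to 337 CPM in L100. This excess lay in 1 gene of the list, the cysteine protease gene see1, with 743 CPM in wild type replicate 3 and 141 to 275 CPM in the other 5 libraries. The other genes with counts did not share it. see2a had 41.7, 45.1 and 18.0 CPM across the wild type libraries, so it was lowest in replicate 3, and see2b had 202, 180 and 209 CPM. The median deviation of the 3 genes in that library was 0.135 on the log2 scale. Between the lines, 1 of 3 tested genes of the list was called lower in L100 (see2b, edgeR adjusted p = 0.018). Of all tested genes, 0.834% were called in either direction. The root hair gene rth3, 1 of 2 root markers found in the name table, had 6.79 CPM in wild type replicate 3 and 0.616 to 1.14 CPM elsewhere, and the other, rtcs, had no count. The 12 tested genes of growing leaf tissue had a median deviation of 1.32 in wild type replicate 3. Their list summed to 296 CPM there, 283 CPM in replicate 1 and 99.9 CPM in replicate 2, so by the sum replicate 2 stood apart. Of the meristem and leaf base list, knox6 had 35.4, 33.1 and 52.4 CPM and knox7 17.9, 27.7 and 37.8 CPM across the wild type libraries, both highest in replicate 3 (median deviation 0.687). The leaf blade markers had a median deviation of -0.572, but their summed levels of 67200, 96300 and 71000 CPM were lowest in replicate 1. The list of epidermal genes had a median deviation of -0.0684 in wild type replicate 3. The 8 of that list summed to 128 CPM in wild type replicate 3, 129 and 144 CPM in the other wild type libraries and 148 to 156 CPM in L100. Its most abundant genes, ocl5 and ocl3, which encode homeodomain proteins of the outer cell layer, had 53.7 and 25.9 CPM in wild type replicate 3. The part of senescing, growing or other tissue in the wax gene levels was not tested.

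Further genes of wax and cuticle formation found by name were few and low. Of 3, 2 were tested and 0 were called by edgeR, DESeq2 or limma-voom, with 0 at an unadjusted p under 0.05 in edgeR. fae1 (GRMZM2G022558), named for a fatty acid elongase, averaged 1.51 ± 0.614 CPM for wild type against 2.27 ± 0.962 CPM for L100 (edgeR adjusted p = 0.758). WIN1 (GRMZM2G085678), named after an Arabidopsis activator of wax and cutin genes, had 1.29 ± 0.267 and 1.74 ± 0.562 CPM (0.807). The lipid transfer protein gene plt2 (GRMZM2G010868) had 27.7, 34.5 and 8.88 CPM across the wild type libraries and 27.7, 33.0 and 27.0 CPM across those of L100 (edgeR adjusted p = 0.868). It was lowest in wild type replicate 3, as plt1 was, and its L100 libraries lay within the wild type range.

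Plastid fatty acid synthesis, which supplies the acyl chains, had 4 genes found by name. All 4 were tested and 0 were called by edgeR, DESeq2 or limma-voom, with 0 at an unadjusted p under 0.05. Of these, 2 had a log2 fold change above 0, against 47.6% of all tested genes, and the median of the 4 was 0.22. The most abundant were ACC1 (GRMZM5G858094), an acetyl-CoA carboxylase gene, with means of 754 ± 243 CPM (wild type) and 724 ± 189 CPM (L100), and a gene called SAD1 (GRMZM5G852502), with 453 ± 280 and 640 ± 130 CPM. FatB (GRMZM5G829544), a thioesterase that releases saturated chains, had 5.75, 6.26 and 1.34 CPM across the wild type libraries and 9.09, 7.79 and 6.11 CPM across those of L100 (edgeR adjusted p = 0.697). It is named here after its values were seen. The list did not move as one in wild type replicate 3. FatB and SAD1 (380, 762 and 217 CPM) were at their lowest of the wild type libraries there, ACC1 (981, 498 and 782 CPM) lay between the others, and sad1 (GRMZM2G014376; 23.0, 15.3 and 33.1 CPM) was at its highest.

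A list of 26 genes for phase change, the switch from juvenile to adult leaves, was matched by symbol. It is mostly SBP-box genes, and the part of each gene in this switch was not checked. Of the 26, 11 were tested and 0 were called by edgeR, DESeq2 or limma-voom. In edgeR, 1 had an unadjusted p under 0.05 and 6 had a log2 fold change above 0, against 10% and 47.6% of all tested genes. The median of the 11 was 0.13. The most abundant, the SBP-box transcription factor genes sbp17 (GRMZM2G156756) and sbp16 (GRMZM2G169270), averaged 109 ± 22.4 and 118 ± 44.3 CPM over the wild type libraries. Over the L100 libraries they averaged 140 ± 3.11 and 131 ± 7.50 CPM (edgeR adjusted p 0.707 and 0.918). The APETALA2-like gene ids1 (GRMZM5G862109), a relative of gl15 named after its values were seen, had 15.6, 4.09 and 12.6 CPM across the wild type libraries and 7.28, 3.57 and 3.38 CPM across those of L100 (edgeR adjusted p = 0.534). Its wild type order differed from that of gl15, with replicate 1 the highest. Another APETALA2-like gene, sid1 (GRMZM2G176175), had 3.8, 1.41 and 1.34 CPM across the wild type libraries and 2.24, 1.30 and 1.93 CPM across those of L100 (edgeR adjusted p = 0.919). Of 8 epidermal genes 7 were tested and 0 called by any of the 3 tools (0 at an unadjusted p under 0.05 in edgeR), with a median of 0.24. Of 32 genes of growing leaf tissue (expansins, tubulins and cell cycle genes) 12 were tested and 0 called by any of the 3 tools (1 at an unadjusted p under 0.05 in edgeR), with a median of 0.32 and a summed level of 283, 99.9 and 296 CPM in wild type and 293 to 406 CPM in L100.

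Profiles over the 6 libraries were compared by the root mean square difference of log2 CPM, each gene centred on its mean, over 8012 candidate genes. The libraries are shared by all genes compared, so this describes likeness in these libraries only. For gl1 the most similar were GRMZM2G030038 (0.147), GRMZM2G003389 (0.166) and GRMZM2G069928 (0.167), where the median candidate stood at 1.28. The closest wax gene to gl1 was CER1 (GRMZM2G066578) at 0.53, and the reverse also held. That CER1 gene was most like GRMZM2G150950 (0.147), and gl2 most like AC218035.3_FG001 (0.0836), with median candidates at 1.0 and 0.901. plt1 was most like GRMZM2G313101 (0.247), with gl2 as its closest wax gene (0.66) and the median candidate at 1.16. CER1 (GRMZM2G099097) had no near match among the wax genes, the closest being gl4a at 1.05 where the median candidate stood at 1.33, and its most similar gene was GRMZM2G345700 (0.379), at 8.52, 3.19 and 5.45 CPM across the wild type libraries and 31.8, 11.9 and 27.2 CPM across those of L100. gl4a and gl8b were most like GRMZM2G094666 (0.114) and GRMZM2G022090 (0.0546) and were each other's closest wax gene, but at 0.537 this was little below their median candidates (0.633 and 0.7). The name table gives none of these similar genes an informative symbol.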

How the data were processed

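RNA sequencing libraries of maize leaves (3 wild type, 3 L100) were compared. The submitters' processing notes name Bowtie 0.12.2 and the build B73 RefGen_v3. The counting method and its strand setting are not given in the sources used here. Per the file headers, the authors deposited an estimated count, an FPKM value, scaled fragments (a signal equal to the count times a factor per library) and a length per gene. Since 88.7% of the lengths are multiples of 3, they are taken as coding lengths. Of the authors' estimated counts, 0.3% departed from a whole number by over 0.001; all were rounded. FPKM served only to check the order of levels, and the signal only for an alternative scaling.

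Lines were compared with edgeR 4.0.16 (R 4.3.3) by its quasi-likelihood test without a block, after TMM scaling and the filterByExpr filter. P-values were adjusted by Benjamini-Hochberg over 18702 genes, and the threshold was 0.05. CPM use TMM-scaled sizes, and log2 CPM a prior count of 1. SE is the absolute log2 fold change over the square root of F, and 95% intervals use its t quantile. Alternatives were DESeq2 1.42.0, limma-voom (limma 3.58.1), other scalings and filters, a replicate block and each library left out; DESeq2 without each library was added after the data were seen. The fit was tested on simulated data.

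Names came from RefSeq records of the later assembly Zm-B73-REFERENCE-NAM-5.0, used for names only; 47.4% of identifiers matched, including 8 of the 9 wax genes. Lists were matched by symbol, with 4 genes of like symbol but other function removed. The 9 genes and the lists were chosen with earlier results of these data known. All 9 wax genes are named. From each list the rule was to name called genes or else the 2 with the highest mean. It also selects pep1 and pdk1 of the leaf blade list and LTP3 of the lipid transfer proteins, whose own levels are not given. Genes outside this rule are kn1, see1, see2a, sad1 (GRMZM2G014376), FatB, ids1 and sid1. Genes with the most similar profile are also named, among those with a mean of at least 5 CPM and a log2 range of at least 1.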

Additional observations from a re-analysis of the deposited data

How the results depend on the processing

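Over all genes, 156 calls by edgeR became 570 with DESeq2, 10 with the stricter filter (at least 10 counts in every library) and 5 with the replicate number as a block. With 1 library left out, edgeR made 0 to 222 calls: 0 when L100 replicate 2 or 3 was missing (unadjusted p under 0.05 in 1295 and 1282 genes) and 6 when L100 replicate 1 was. DESeq2 with 1 library left out was added after the data were seen. It made 765, 1389 and 576 calls with wild type replicates 1 to 3 left out in turn and 395, 376 and 330 with those of L100. Among the wax genes, DESeq2 made 1 call of 7 tested, and 0 to 3 calls with 1 library left out. The 3 were CER1 (GRMZM2G099097), plt1 and gl15 without wild type replicate 2, out of 8 tested. In that setting DESeq2 called 1389 of all 19345 tested genes, against 570 of 18657 (3.06%) with all 6 libraries. For the wax genes, edgeR made no call under any setting tried. The sign turned for CER1 (GRMZM2G066578) with limma-voom (0.241), the block (0.251), and without wild type replicate 2 (0.513; DESeq2 0.524) or L100 replicate 3 (0.0274; DESeq2 0.0436), where leaving out 1 library gave -0.535 to 0.513 in edgeR, and for gl4a with total counts as the only scaling (-0.0396), which moved the median of all genes by -0.23. The cause was not tested. The other 5 tested wax genes kept their sign in all 22 alternatives. Correlations of deviations between the 2 libraries of equal replicate number were 0.369, 0.34 and 0.0154 for numbers 1 to 3. Libraries 1 and 2 of each line correlated best with their own number, while those numbered 3 did not. With 3 libraries per line, these values cannot decide whether equal numbers pair the samples. The mean log2 CPM difference of gl15, -1.13, was -2.18 with wild type replicate 2 left out and -0.33 with replicate 3 left out. gl15 and gl3 had too few counts for the main test; gl15 also spread widely among wild type libraries.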
